A study of Mus musculus with 17 samples.

Results

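Skin innate lymphoid cells (ILCs) that carried a fate-map (fm) reporter were compared with ILCs from the same kind of mouse that did not carry it, across all genes. The members are the 4 bulk RNA-seq libraries labelled fm_pos (n = 2) and fm_neg (n = 2) with no Gata3flox in the label, out of 17 samples in the series. The mice were on a C57BL/6 background. In such mice a cell stays marked after the gene that drives the reporter is switched off, so reporter-negative cells are those that show no such mark. The labels do not name other cells that could carry the mark. Both groups were sorted from skin as live cells without lineage markers or the γδ T cell receptor and with CD90, the protein of Thy1. The labels give no age, sex, hair cycle stage, treatment or number of pooled mice for these groups, and do not say whether each replicate was its own animal. The p-values therefore rest on the spread among libraries, which may be technical. A second pair of groups with the same sort, fm_pos_Gata3flox (n = 3) and fm_neg_Gata3flox (n = 3), is labelled as carrying a floxed allele of Gata3, and its values are set beside the intact ones. All 10 libraries entered 1 fit, so the spread behind the p-values comes in part from the Gata3flox-labelled libraries. These were more alike within a group. Log2 levels correlated at 0.838 between the fm_pos libraries and at 0.811 between the fm_neg libraries. Within the Gata3flox-labelled groups they correlated at 0.895 to 0.902.

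ILCs are tissue lymphocytes without rearranged antigen receptors. They are usually divided by their cytokines and transcription factors. ILC2s respond to the alarmin IL-33 and make type 2 cytokines, ILC3s make IL-17 family cytokines and IL-22 and carry the chemokine receptor CCR6, and ILC1s and NK cells carry receptors such as NKp46, the protein of Ncr1. Gata3 is the transcription factor that ILC2s depend on. Skin is also made of keratinocytes, dermal fibroblasts, vessels, mast cells and macrophages, and RNA of these cells can enter a sorted library.

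Total counts were 29459270 in fm_pos_1, 40639618 in fm_pos_2, 21434504 in fm_neg_1 and 14450612 in fm_neg_2, and from 16844805 to 44098274 in the 6 Gata3flox-labelled libraries. Each library was scaled to counts per 1000000 counts (CPM). The defining markers of sorted lymphocytes were present in all 4 libraries. Ptprc, which encodes CD45, was at 1348 and 989.6 CPM in fm_pos and at 855 and 960.3 in fm_neg. Thy1, the gene of the sorting marker, was at 149.8 and 112 CPM in fm_pos and at 76.4 and 76.8 in fm_neg. Il7r, the IL-7 receptor chain of most ILCs, was at 802 and 659.8 CPM in fm_pos and at 437 and 519 in fm_neg. The 12 lymphocyte identity genes summed to 14488 and 15460 CPM in fm_pos and to 9814 and 11472 in fm_neg. All 12 had a fitted level above that of fm_neg, with a median log2 difference of 0.55 against 0.00 over all genes, and 1 of the 12, Arhgdib, passed the test.

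The fm_neg libraries also held transcripts of other skin cells. A list of 30 fibroblast and dermal matrix genes summed to 198 and 369.8 CPM in fm_pos and to 12358 and 9872 CPM in fm_neg, against 193 to 470.1 in fm_pos_Gata3flox and 609.6 to 1412 in fm_neg_Gata3flox. The fm_neg libraries of intact mice thus stood above all 8 other libraries for this list. Dcn, the matrix proteoglycan decorin, was at 27.4, 115, 6168 and 4431 CPM in fm_pos_1, fm_pos_2, fm_neg_1 and fm_neg_2. The 22 basal keratinocyte and hair follicle genes summed to 536 and 693 CPM in fm_pos and to 5619 and 3122 in fm_neg. Krt14, a keratin of the basal epidermis, was at 69.3, 23.5, 2241 and 1161 CPM in the same order. Both groups held the lymphocyte markers. Beside them, fm_neg held fibroblast transcripts and some keratinocyte transcripts, Krt14 among them, at levels not seen in fm_pos. Of 21 tested basal keratinocyte genes, the fitted level in fm_pos was below that of fm_neg for 16 and above it for 3. Of 16 suprabasal keratinocyte genes it was below for 10 and above for 3. Krtdap, a suprabasal gene, was at 18.8 and 47.7 CPM in fm_pos and at 21.7 and 17.4 in fm_neg, scaled by total counts alone. In bulk libraries fewer cells of a type and less RNA per cell cannot be told apart.

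**Figure D1:**
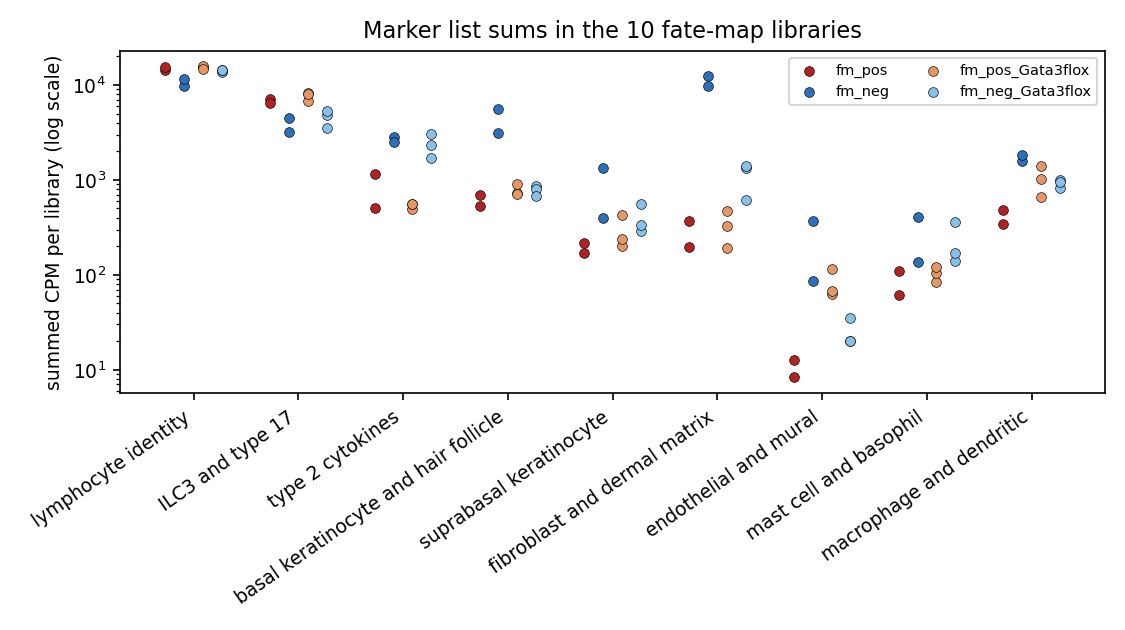
Summed CPM of 9 marker lists (y axis, log scale) in each of the 10 fate-map libraries, 1 point per library, coloured by group. The fibroblast and dermal matrix sums of the 2 fm_neg libraries, 12358 and 9872 CPM, lie above those of all other libraries, while the lymphocyte identity sums of all libraries lie between 9814 and 15736 CPM.

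Some mast cell and vessel transcripts were also higher in the fm_neg libraries, in unequal amounts. The 13 mast cell and basophil genes summed to 60.9 and 109 CPM in fm_pos and to 405 and 138 in fm_neg. Kit, found in 43.6% of the cells of the skin single-cell library, made up 60.4 and 95.7 CPM of the sums in fm_pos. In fm_neg it made up 143 and 106 CPM. The proteases Mcpt4, Cma1 and Cpa3 were at 35.9, 70.1 and 41.9 CPM in fm_neg_1, at 0, 2.92 and 5.15 CPM in fm_neg_2, and at no more than 0.0649 CPM in fm_pos. Tpsb2, another mast cell protease, was at 0 and 5.27 CPM in fm_pos and at 29.5 and 13.8 in fm_neg. The 18 endothelial and mural genes summed to 12.5 and 8.29 CPM in fm_pos and to 86.8 and 373 in fm_neg. Of these, Lyve1 and Rgs5 were both at 108 CPM in fm_neg_2 and at 0 in the other 3 libraries, while Eng, an endothelial receptor gene, was at 33.3 and 28 CPM in fm_neg, with 1 read in fm_pos. The fitted level in fm_pos was below that of fm_neg for 14 of 16 tested members and above it for 0. Other endothelial genes of the list did not separate the groups. Kdr, Tek and Vwf had no count in the 4 libraries, and Cdh5 had 2 counts in each group. Scaled by total counts alone, Pecam1 was at 9.0 and 3.13 CPM in fm_pos and at 3.13 and 26.2 in fm_neg. The 23 macrophage and dendritic cell genes summed to 343 and 477 CPM in fm_pos and to 1601 and 1847 in fm_neg, where Apoe made up most of the sum. Csf1r, Adgre1 and Itgam, myeloid genes of the list, were at 0 in all 4 libraries but for Csf1r at 0.974 CPM in fm_neg_2. Other members were counted in both groups. Scaled by total counts alone, Cd68 was at 19.7 and 8.86 CPM in fm_pos and at 9.94 and 12.5 in fm_neg. Cd14 was at 0.0339 and 10.4 against 12.3 and 22.6 CPM, and Lyz2 at 0.0339 and 9.35 against 8.44 and 4.01 CPM. Cd74, a chain of antigen presentation found in up to 61.2% of the cells of a dorsal library, was at 169 and 327 CPM in fm_pos and at 434 and 363 in fm_neg.

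Of 17456 genes tested with edgeR's quasi-likelihood test, 109 were higher in fm_pos (0.624%) and 369 were lower (2.11%) at a Benjamini-Hochberg adjusted p under 0.05, 478 in all (2.74%). Counts of calls in the gene lists below are to be read beside these shares. To separate genes of lymphocytes from those of other skin cells, each gene was looked up in the 3 single-cell libraries of skin ILCs of the series, which were not used in the fit (4441, 564 and 454 cells with at least 200 genes, with medians of 2260, 2001 and 1826.5 counts per cell). Of their cell names 4 were shared between the skin library and the dorsal library of day 0, and none between the other pairs. A gene was taken as detected where at least 2% of the cells of any of these libraries held its transcript. Of 12 lymphocyte identity genes 12 were detected, with a median of 80.8% of cells, and of the 30 fibroblast genes 1 was, with a median of 0.22%. Krt14 was found in at most 0.355% of cells and Dcn in at most 0.532%. The dorsal skin libraries also held myeloid-type transcripts (Lyz2 in 18.3% of cells), so detection does not prove a lymphocyte source.

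The called genes split along this line. Among 8143 detected genes, 76 rose (0.933%) and 109 fell (1.34%). Among 8585 genes listed in the single-cell files but not detected, 31 rose (0.361%) and 258 fell (3.01%). Of the detected genes that fell 15 of 109 had no count in fm_pos, and of the undetected ones 136 of 258 (52.7%). With these genes at their bound, the median log2 difference was −2.66 and −8.17. Genes that were lower in fm_pos thus lay mostly among those not detected in single ILCs, and genes that were higher lay mostly among the detected ones. In tested counts, undetected genes took 3.42% and 2.95% in fm_pos, 8.26% and 7.49% in fm_neg, and 2.91% to 3.76% in the Gata3flox-labelled libraries. Counted in finer steps, 2.35% of the genes in under 0.1% of cells fell and 0.0795% rose, while 0.465% of the genes in at least 50% of cells fell and 1.40% rose.

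**Figure D2:**
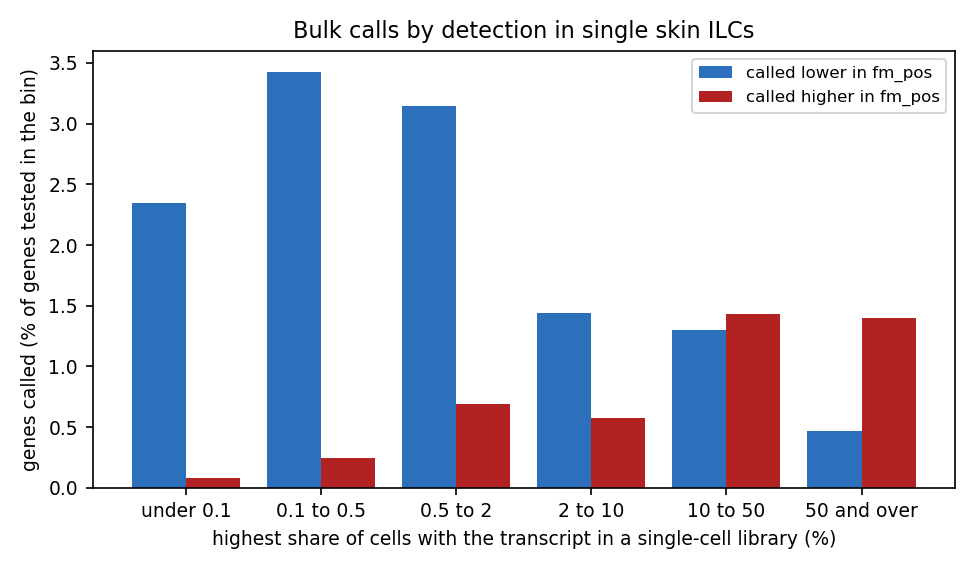
Percent of tested genes called lower (blue) or higher (red) in fm_pos, by the highest share of cells holding the transcript in any of the 3 single-cell libraries. Lower calls are most frequent at 0.1 to 0.5% of cells (3.43%) and least at 50% and over (0.465%), and higher calls reach 1.44% at 10 to 50%.

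Counts of 0 touch many of these calls. Of the tested genes, 16.9% had no count in either fm_pos library and 11.8% had none in either fm_neg library, against 2.44% in the 3 fm_pos_Gata3flox and 1.98% in the 3 fm_neg_Gata3flox libraries. Of the 369 lower genes 152 had no count in fm_pos, and 142 of these (93.4%) were counted in all 3 fm_pos_Gata3flox libraries. Of the 109 higher genes 18 had no count in fm_neg, and all 18 were counted in every fm_neg_Gata3flox library. The fm_pos libraries had a count for 14525 and 14771 genes, the fm_neg libraries for 15410 and 15248, and the Gata3flox-labelled libraries for 17730 to 18974. The part of this difference in the results was not tested. For genes with no count in a group, the fold given below is a bound, computed as if the group held 3 counts in all. Intervals and bounds cover counting error only.

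Of the type 2 cytokine genes, Il4 and Csf2 fell in reporter-positive cells. Il4, a type 2 cytokine (chromosome 11, 53602982 to 53618669, minus strand, mm10), was at 6.95 and 4.84 CPM in fm_pos and at 77.7 and 42.9 in fm_neg. It fell by 3.36 ± 0.40 (SE) on the log2 scale (adjusted p = 0.00322). Csf2, which encodes GM-CSF, was at 18.2 and 41.9 CPM in fm_pos and at 407 and 150.1 in fm_neg, and fell by 3.21 ± 0.51 (adjusted p = 0.0142). For both genes every fm_pos library lay below every fm_neg library, and the groups did not overlap for 35% of all tested genes. Il5, the eosinophil growth factor, was at 58.9 and 271 CPM in fm_pos and at 698 and 728 in fm_neg, and did not pass (log2 difference −2.11, adjusted p = 0.215). Areg, the epidermal growth factor family ligand, was at 194 and 385 against 595 and 583 CPM (−1.02, adjusted p = 0.112). Il13 was at 7.63 and 26 against 49.1 and 33.2 CPM (−1.29, adjusted p = 0.271). In all, 2 of 12 tested type 2 cytokine genes passed, both lower, and the fitted difference was below 0 for all 12, with a median of −1.65 against 0.00 over all genes.

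Receptors of ILC2s did not move as a block. Il1rl1, the IL-33 receptor (chromosome 1, 40429570 to 40465415), was at 2.11 and 10.3 CPM in fm_pos and at 108 and 86 in fm_neg. It fell by 3.96 ± 0.68 on the log2 scale (adjusted p = 0.0188). Mast cells also express Il1rl1 and Il4. The mast cell and basophil list summed to 405 and 138 CPM in fm_neg and to 60.9 and 109 in fm_pos. Kit, which single ILCs also held, made up 143 and 106 CPM of these sums in fm_neg and 60.4 and 95.7 in fm_pos. The part of mast cell RNA in the Il1rl1 and Il4 values was not tested. Arg1, the arginase of activated ILC2s, was at 2.73 and 2.46 CPM in fm_pos and 29.4 and 34.2 in fm_neg (−3.62 ± 0.80, adjusted p = 0.046). Without any 1 of the 4 libraries it no longer passed (adjusted p from 0.062 to 0.105). Klrg1, an inhibitory receptor of mature ILC2s, was at 4.97 and 0.652 against 30.2 and 44.3 CPM (−3.73, adjusted p = 0.149). Icos, a costimulatory receptor, was at 1635 and 2045 against 1025 and 1846 CPM, and Ccr8, a skin-homing chemokine receptor, at 2071 and 2627 against 2067 and 2169.7 CPM. The libraries of both groups overlapped for these last 2 genes, and neither passed. The list had 2 of 17 tested members called lower and 0 higher, with a median of 0.18.

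Gata3 itself was at 164 and 303 CPM in fm_pos and at 381 and 504 in fm_neg. Both fm_pos libraries lay below both fm_neg libraries, and the log2 difference of −0.92 ± 0.39 did not pass (adjusted p = 0.230). Groups of 2 did not overlap for 6113 of the tested genes (35%), and an exact permutation test of 2 libraries against 2 cannot go below p = 0.333.

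Of 20 genes known from ILC3s and type 17 cells, 5 rose in reporter-positive cells and 0 fell. Over all tested genes 0.624% rose and 2.11% fell. Ccr6 (chromosome 17, 8236043 to 8257141) was at 799 and 494 CPM in fm_pos and at 187 and 238 in fm_neg, and rose by 1.61 ± 0.28 on the log2 scale (adjusted p = 0.0202). Tmem176b, an ion channel gene of ILC3s and type 17 cells, was at 518 and 411 against 168 and 218 CPM (1.27 ± 0.21, adjusted p = 0.0151). Its neighbour Tmem176a was at 345 and 266 against 64.9 and 151 CPM (1.50 ± 0.34, adjusted p = 0.0475). The 2 genes overlap head to head on chromosome 6, from 48840919 to 48841496. Reads within that stretch cannot be told apart unless strand was counted, which the sources used here do not give. Ltb, a lymphotoxin subunit that acts in lymphoid tissue formation, was at 500.1 and 476 against 306 and 211 CPM (0.92 ± 0.21, adjusted p = 0.0496). Il17re, a chain of the IL-17C receptor, was at 10.1 and 8.7 CPM in fm_pos and had no count in fm_neg, which makes it at least 112-fold higher in fm_pos. It was found in at most 0.585% of single ILCs and so counted as undetected. The fitted difference was above 0 for 15 members and below 0 for 4, with a median of 0.90. Without 1 library, Ccr6 (adjusted p = 0.0522 without fm_pos_1 and 0.0733 without fm_neg_1), Tmem176a (0.109 and 0.0681 for the same libraries), Tmem176b (0.0536 without fm_neg_1) and Il17re (0.0877 without fm_neg_1 and 0.0737 without fm_neg_2) no longer passed. Ltb no longer passed without fm_pos_1 (0.102), fm_pos_2 (0.0658) or fm_neg_2 (0.154). With RLE size factors in place of TMM, Ltb (0.0631) and Tmem176a lost the call.

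The cytokines of that program gave no common direction. Il17a was at 0 and 24.8 CPM in fm_pos and at 53.2 and 0 in fm_neg. Il17f was at 52.7 and 3.69 against 0 and 2.23 CPM, and Il22 at 0 and 2.46 against 0 and 0 CPM. Each of the 3 was carried by single libraries, and none passed (adjusted p from 0.225 to 0.899). Il23r, a chain of the IL-23 receptor that drives these cytokines, was at 81.9 and 60.3 against 0 and 12.7 CPM and did not pass either (adjusted p = 0.295).

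Of 21 genes known from NK cells and ILC1s, 3 fell in reporter-positive cells and 0 rose, against 2.11% and 0.624% of all tested genes. Ncr1 had no count in fm_pos and was at 6.08 and 9.18 CPM in fm_neg, at least 174-fold lower in fm_pos. Tyrobp, the signalling adaptor DAP12 of NK and myeloid receptors, was at 2.89 and 1.0 against 33 and 91.4 CPM and fell by 5.01 ± 0.67 on the log2 scale (adjusted p = 0.00612). Klrc2, an NKG2 family receptor with near-identical relatives that may share reads, had 1 read in fm_pos and was at 2.12 and 1.46 CPM in fm_neg. The ratio of fm_neg to fm_pos was 133 with a counting interval of 23.1 to 5323 (95%). Without fm_pos_1 the call of Klrc2 was lost (adjusted p = 0.0674). The median of the list was −1.31. Ncr1 was detected in up to 4.61% of the cells of a dorsal library and Tyrobp in up to 21.8%, but in the skin library, which held fewer myeloid-type transcripts, they were in 1.17% and 1.60% of cells. The part of myeloid RNA in the Tyrobp value was not tested. The transcription factors of these cells gave no call: Tbx21 was at 45.4 and 13.1 against 28.2 and 43.8 CPM, and Eomes at 0.0649 and 0 against 0 and 10.8 CPM.

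Cytotoxic effector genes were spread across both groups. Fasl, the death ligand, was at 52.5 and 55.3 CPM in fm_pos and at 23 and 19.5 in fm_neg, and rose by 1.34 ± 0.29 (adjusted p = 0.0444). At most 0.887% of single ILCs held Fasl, which put it among the undetected genes. It was the only called member of 13 tested, and it lost the call without any 1 of the 4 libraries (adjusted p from 0.0682 to 0.127). Gzmb, a granzyme, was at 132 and 238 against 71.2 and 221 CPM, and Prf1, the gene of perforin, at 51.9 and 25.3 against 49.2 and 117 CPM. Gzma was at 106 CPM in fm_neg_2 and at 0 in the other 3 libraries.

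Transcription factors of lymphocytes included 1 call in each direction among 26, where 0.624% of all tested genes rose and 2.11% fell. Tcf7, which encodes the factor TCF-1 of early ILCs and T cells, was at 182 and 199 CPM in fm_pos and at 82.5 and 85.3 in fm_neg, and rose by 1.18 ± 0.22 (adjusted p = 0.0252). Without fm_neg_1 (adjusted p = 0.0729) or fm_neg_2 (0.0625) it no longer passed. Id3, an inhibitor of E proteins, was at 23.7 and 33.5 CPM in fm_pos and at 731 and 502 in fm_neg, and fell by 4.43 ± 0.45 (adjusted p = 0.00189). It was detected in up to 6.69% of single ILCs. Other cells, keratinocytes and fibroblasts among them, also express Id3, and their part in this value was not tested. Rora, Id2 and Bcl11b, factors of ILC development, were at 1374 and 2679.5 against 2012 and 2137 CPM, at 2157 and 4505 against 2601 and 2846 CPM, and at 115 and 65.8 against 58.9 and 49.7 CPM. None of the 3 passed.

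**Figure D3:**
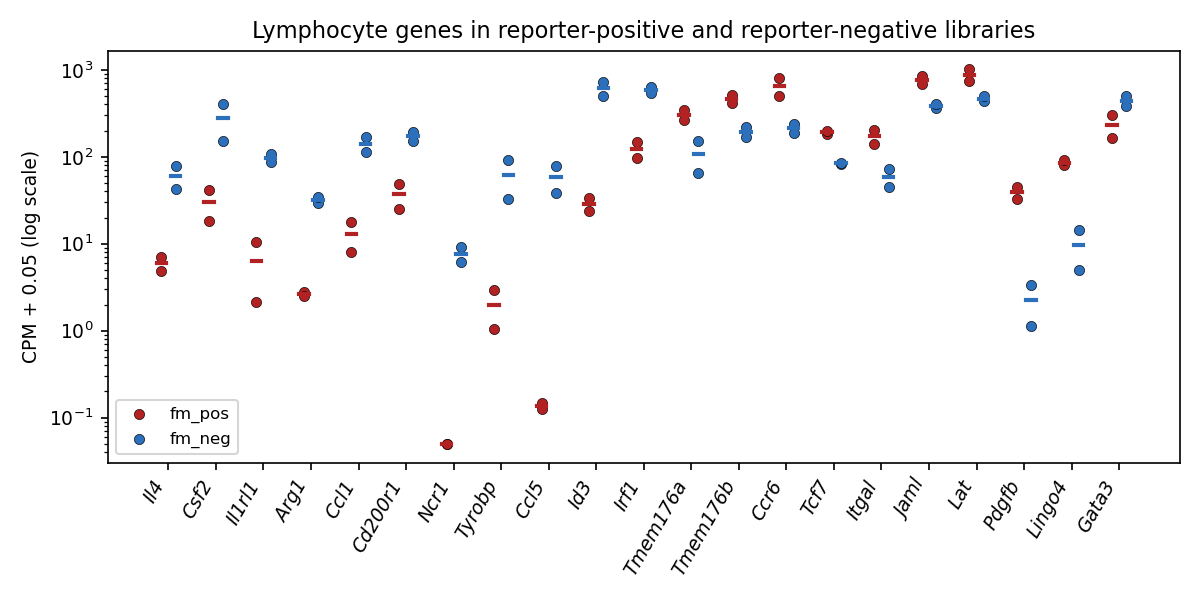
Levels of 21 lymphocyte genes in CPM + 0.05 (log scale), 1 point per library and a bar at each group's mean, with fm_pos in red and fm_neg in blue. The groups do not overlap for any gene shown. All but Gata3 passed the test, and were picked for it, so their separation adds nothing to the test.

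Genes of the T cell receptor complex and of antigen receptor signalling were mixed. Lat, the scaffold of T cell receptor signalling, was at 1009.8 and 738 CPM in fm_pos and at 434 and 502 in fm_neg, and rose by 0.90 ± 0.20 (adjusted p = 0.0431). Trbc2, a T cell receptor constant segment with a near-identical copy, was at 345 and 327 against 182 and 220.4 CPM (0.74 ± 0.15, adjusted p = 0.0357), while the copy Trbc1 was at 488 and 542 against 420.2 and 697 CPM. The 2 were the only calls among 20. Both lost the call without fm_pos_1 (adjusted p = 0.136 for Lat and 0.085 for Trbc2) or fm_neg_1 (0.14 and 0.129), and Lat also without fm_neg_2 (0.0737). Cd3g and Trac were highest in fm_pos_1. Cd3g was at 813 and 206 against 474 and 422 CPM, Cd3e at 55.3 and 11.2 against 62.3 and 42.1 CPM, and Trac at 237 and 55.7 against 29 and 33.3 CPM. None of these 3 passed (adjusted p from 0.0677 to 0.961).

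Cell surface genes of adhesion and contact moved in both directions. Jaml, an adhesion molecule that binds epithelial cells, was at 839.9 and 695 CPM in fm_pos and at 365 and 402 in fm_neg, and rose by 1.0 ± 0.17 (adjusted p = 0.0165). Itgal, the alpha chain of the integrin LFA-1, was at 204 and 142 against 73.1 and 44.5 CPM (1.55 ± 0.28, adjusted p = 0.0232). Cd200r1, an inhibitory receptor, was at 25.4 and 48.3 against 195 and 154 CPM and fell by 2.24 ± 0.30 (adjusted p = 0.0061). The tetraspanin gene Cd9 was at 147 and 350.1 against 703 and 797 CPM (−1.59 ± 0.35, adjusted p = 0.0467). With 2 calls in each direction among 21 tested, the list had a median of −0.25. Of all tested genes 0.624% rose and 2.11% fell. Jaml lost its call without fm_neg_1 (adjusted p = 0.0595) and Itgal without fm_pos_1 (0.0616) or fm_neg_2 (0.0655). Cd9 lost it without fm_pos_1, fm_neg_1 or fm_neg_2 (0.0655, 0.0711 and 0.1), while Cd200r1 passed without any 1 library.

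Cd40lg, the T cell ligand of CD40, was at 155 and 27.9 CPM in fm_pos and at 9.32 and 8.34 in fm_neg. It rose by 3.37 ± 0.70 (adjusted p = 0.0362) and was the only call among 25 inhibitory and costimulatory receptor genes. At most 1.22% of single ILCs held Cd40lg, so it counted as undetected. Trac and Cd3g were also highest in fm_pos_1, at 237 and 813 CPM, while Cd3e and Trbc1 were not highest there. The part of T cell transcripts in the Cd40lg value was not tested. Without fm_pos_1 Cd40lg did not pass (adjusted p = 0.2), nor without fm_neg_1 (0.103) or fm_neg_2 (0.111).

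Receptors for cytokines and chemokines held no call. Il10rb, a shared chain of the receptors for IL-10 and IL-22, was at 67.6 and 101 CPM in fm_pos and at 23.1 and 31.9 in fm_neg (log2 difference 1.62 ± 0.39, adjusted p = 0.0617). Il1r2, the decoy receptor for IL-1, was at 0.13 and 9.98 against 361 and 78.7 CPM (−5.43 ± 1.50, adjusted p = 0.0949). S1pr1, the receptor that guides exit from tissue, was at 155 and 352 against 107 and 67.1 CPM (1.54 ± 0.41, adjusted p = 0.0833), and Cxcr4 at 131 and 163 against 77.4 and 91.5 CPM (0.80 ± 0.23, adjusted p = 0.110). The groups did not overlap for these 4 genes, as for 35% of all tested genes. At an adjusted p under 0.05, 0 of 20 cytokine receptor and 0 of 17 chemokine receptor genes were called with edgeR, and with DESeq2 the cytokine receptor list had 2 higher and 3 lower calls and the chemokine receptor list 2 higher and 1 lower. At an unadjusted p under 0.05, 4 cytokine receptor genes were higher and 3 lower, and 3 chemokine receptor genes were higher and 4 lower. Over all 17456 tested genes, 1309 were higher and 2153 lower at that threshold, and 607 and 1601 were called with DESeq2.

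Chemokine ligands were lower in fm_pos where they were called, with 1 exception. Ccl1, the ligand of CCR8, was at 7.92 and 17.8 CPM in fm_pos and at 169 and 115 in fm_neg, and fell by 3.46 ± 0.51 (adjusted p = 0.0101). Ccl5, a chemokine made by activated lymphocytes and NK cells, was at 0.0974 and 0.0753 against 38 and 77.7 CPM and fell by 9.33 ± 0.92 (adjusted p = 0.00175). Cxcl1 and Cxcl3, which attract neutrophils, were at 0.0649 and 2.63 against 126 and 173 CPM, and at 0 and 0.0251 against 2.88 and 7.09 CPM. Ccl1 and Ccl5 were detected in up to 6.96% and 10.1% of single ILCs, and Cxcl1 and Cxcl3 in at most 0.661% and 1.55%. Ccl3 was at 11 and 1.51 CPM in fm_pos and at 0.045 and 0 in fm_neg, a ratio of 204 (95% counting interval 36.5 to 8088) that rests on 1 read in fm_neg. In all, 4 of 24 tested ligands fell and 1 rose, against 2.11% and 0.624% of all tested genes. Ccl3 lost the call without fm_neg_1 (adjusted p = 0.0733) or fm_neg_2 (0.0816), and Cxcl3 without fm_pos_1 (0.0633).

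Growth factors and Wnt pathway genes, which signal between skin cells and the hair follicle, showed 8 lower calls and 1 higher call among 31. The shares over all tested genes were 2.11% lower and 0.624% higher. Pdgfb, a platelet-derived growth factor that acts on fibroblasts and pericytes, was at 45.2 and 32.5 CPM in fm_pos and at 1.08 and 3.34 in fm_neg. It rose by 4.15 ± 0.54 (adjusted p = 0.00527) and was detected in up to 13.6% of single ILCs. Its relative Pdgfa had no count in fm_pos and was at 12.5 and 7.86 CPM in fm_neg, at least 254-fold lower in fm_pos. The insulin-like growth factor Igf1 had 1 read in fm_pos and was at 76.9 and 52.4 CPM in fm_neg. The Wnt ligand Wnt10a and the Wnt inhibitors Dkk2 and Wif1 had no count in fm_pos and were at least 329-fold, 2064-fold and 3258-fold lower there. Pdgfa, Igf1, Wnt10a, Dkk2 and Wif1 were found in at most 1.06% of single ILCs. Fibroblast and keratinocyte transcripts were high in the same fm_neg libraries (sums of 12358 and 9872, and of 5619 and 3122 CPM), and their part in these 5 values was not tested. Without fm_pos_1 the call of Wif1 was lost (adjusted p = 0.0522).

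Of the immediate early, interferon response and cell cycle genes, all calls were lower in fm_pos. Fibroblast and keratinocyte transcripts were high in the same fm_neg libraries (sums of 12358 and 9872, and of 5619 and 3122 CPM), and their part in the values of these 3 lists was not tested. In the Gata3flox-labelled mice the log2 differences of Egr1, Ier3, Zfp36 and Nr4a2 were 0.58, −0.06, −0.31 and 0.04. Those of Irf1, Ifitm3, Nusap1 and Ccnb1 were 0.28, −0.64, −0.79 and 0.03. None of these genes passed there. The Gata3flox-labelled libraries differed from the intact ones in their label, their fibroblast sums and the number of genes with a count, which cannot be told apart. Egr1 was at 49.2 and 70.2 CPM in fm_pos and at 599 and 223 in fm_neg (−2.78 ± 0.49, adjusted p = 0.0202), and Ier3 at 75.3 and 135 against 471 and 577 CPM (−2.32 ± 0.31, adjusted p = 0.00565). Zfp36, which destabilises cytokine mRNA, was at 645 and 1065 against 2304 and 1775 CPM (−1.25 ± 0.25, adjusted p = 0.0306), and the nuclear receptor gene Nr4a2 at 370.4 and 562 against 961 and 898 CPM (−1.0 ± 0.21, adjusted p = 0.0362). In that list 4 of 23 members fell and 0 rose, with a median of −0.43. Egr1 (adjusted p up to 0.0674), Zfp36 (up to 0.0926) and Nr4a2 (up to 0.0977) lost the call without fm_pos_1 or fm_neg_1, and Nr4a2 also without fm_neg_2 (0.0671). Of 16 NF-kB pathway genes 0 passed with edgeR and 2, both lower, with DESeq2 or at an unadjusted p under 0.05. Over all 17456 tested genes, 1601 were lower with DESeq2 and 2153 at an unadjusted p under 0.05. Nfkbia, the gene of the inhibitor IκBα, was at 3615 and 3409.7 against 4834 and 4556 CPM (−0.42 ± 0.12, adjusted p = 0.0959).

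Ifitm3, an interferon-induced membrane protein gene with close relatives, was at 9.80 and 9.18 CPM in fm_pos and at 392 and 493 in fm_neg, and fell by 5.54 ± 0.37 (adjusted p = 0.000332). Irf1, an interferon regulatory factor, was at 95.8 and 149.8 against 633 and 535 CPM (−2.25 ± 0.28, adjusted p = 0.00438). Ifitm3 was detected in up to 8.59% of the cells of a dorsal library and in 2.12% of those of the skin library, and Irf1 in 20.2% of those of the skin library. These 2 of 22 interferon response genes fell and 0 rose, with a median of −0.76. Of 24 cell cycle genes, the mitotic genes Nusap1 and Ccnb1 fell. They had no count in fm_pos and were at 5.09 and 13.6 CPM and at 10.1 and 8.21 CPM in fm_neg, at least 201-fold and 223-fold lower in fm_pos. Mki67 and Top2a, which mark cycling cells, did not pass: Mki67 was at 19.5 and 20.1 against 21.4 and 11.2 CPM, and Top2a at 6.52 and 1.78 against 6.58 and 47.5 CPM.

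At a mean of at least 10 CPM over the 4 libraries, the largest differences among detected genes included genes outside the lymphocyte lists. Lingo4, a leucine-rich repeat protein gene, was at 79.7 and 90.6 CPM in fm_pos and at 4.96 and 14.4 in fm_neg (3.14 ± 0.63, adjusted p = 0.0327), and lost the call without fm_neg_1 (0.0825). Adgrg5, an adhesion G protein-coupled receptor gene, was at 203 and 118 against 13.2 and 37.9 CPM (2.66 ± 0.48, adjusted p = 0.0223) and passed without any 1 library. Tnfrsf26, a TNF receptor family gene, was at 30.5 and 17.7 against 4.82 and 5.49 CPM, and the transcription factor gene Sp4 at 65.9 and 30.8 against 12.6 and 12.6 CPM. Both rose (adjusted p = 0.0362 and 0.0354) and lost the call without fm_pos_1, fm_neg_1 or fm_neg_2 (adjusted p up to 0.105). Entpd1, the ectoenzyme CD39, had no count in fm_pos and was at 37.8 and 6.54 CPM in fm_neg, at least 607-fold lower in fm_pos. Apoe, the lipid carrier apolipoprotein E, was at 35.3 and 38 against 944 and 1242 CPM and fell by 4.90 ± 0.26 (adjusted p = 7.86e-05). It was detected in up to 13.7% of cells of a dorsal library and in 1.37% of the cells of the skin library.

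Genes of other skin cells made up the steepest differences. Of 30 fibroblast genes 15 fell and 0 rose. The matrix genes Mmp3, Cilp and Ccdc80 had no count in fm_pos and were at least 3211-fold, 3448-fold and 1869-fold lower there, and no single-cell library held any of them in over 0.177% of cells. Thbs1, the matrix protein thrombospondin, was at 2.95 and 1.81 against 214 and 129.6 CPM (−6.18 ± 0.56, adjusted p = 0.00107). Of 21 basal keratinocyte genes 10 fell, among them Krt14 (−5.20 ± 0.58, adjusted p = 0.00263) and Krt15, a keratin of hair follicle stem cells (−4.80 ± 0.51, adjusted p = 0.00225). Of 16 suprabasal keratinocyte genes 3 fell, and of 16 endothelial and mural genes 2 fell. Of 12 mast cell genes 0 were called with edgeR, 3 with DESeq2 and 4 at an unadjusted p under 0.05, all lower. Over all 17456 tested genes, 1601 were lower with DESeq2 and 2153 at that unadjusted threshold. With genes of no count at their bound, the median log2 difference was −8.17 for the fibroblast list and −4.80 for the basal keratinocyte list, against −0.05 over all genes. Col1a1, the main collagen, was at 0.0325 and 6.2 against 439 and 281 CPM and missed the threshold (adjusted p = 0.0736). Without 1 library, Mmp3 (adjusted p = 0.0567 without fm_pos_1 and 0.0551 without fm_neg_2) and Cilp (0.0656 without fm_pos_1 and 0.0573 without fm_pos_2) lost the call.

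Upstream sequence was examined for letters of the GATA family and of AP-1, the immediate early factor, because Gata3 is the factor of the second set of mice and immediate early genes were called. The sequences below are the RefSeq promoters (GRCm38.p6) of the called lymphocyte genes with the smallest p in each direction whose upstream window is free of annotated exons over at least 100 bases. They are printed 5′ to 3′ on the gene's strand, with capitals for a match on either strand. A GATA match was AGATAA or the same letters with T in first place (TGATAA), or either of these with G in last place. An AP-1 match was TGAGTCA, which reads TGACTCA on the other strand.
Ifitm3, chr7:141010771-141010994, minus strand: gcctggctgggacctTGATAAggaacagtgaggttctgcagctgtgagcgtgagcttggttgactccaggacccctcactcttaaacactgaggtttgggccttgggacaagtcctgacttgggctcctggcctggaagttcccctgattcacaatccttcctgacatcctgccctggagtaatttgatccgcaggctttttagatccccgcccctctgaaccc
Jaml, chr9:45078933-45079182, plus strand: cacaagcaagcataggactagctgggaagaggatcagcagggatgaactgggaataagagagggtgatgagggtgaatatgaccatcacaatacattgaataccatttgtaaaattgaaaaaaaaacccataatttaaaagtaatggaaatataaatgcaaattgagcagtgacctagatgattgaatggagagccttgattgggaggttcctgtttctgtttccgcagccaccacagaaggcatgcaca
The Ifitm3 window held 1 GATA match and no AP-1 match, and the Jaml window held neither. Among 11428 tested genes with a promoter window of 250 bases, 17.7% held a GATA match and 3.28% an AP-1 match. Of the 56 detected genes that rose and had a window, 12.5% held a GATA match and 0% an AP-1 match. Of the 85 detected genes that fell, 20% held a GATA match and 5.88% an AP-1 match, and of the 188 undetected genes that fell, 18.1% and 5.85%. A match is a run of letters and says nothing about binding.

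The same comparison in the Gata3flox-labelled mice used 6 other libraries, in which 22 genes were higher (0.126%) and 41 lower (0.235%). Il4, Csf2, Il1rl1, Ccl1 and Cd200r1 fell there too, with log2 fold changes of −3.28, −4.16, −4.23, −3.77 and −2.06 (adjusted p from 0.00642 to 0.0179). Tmem176a, Tmem176b, Tcf7 and Lingo4 rose there by 2.36, 2.07, 1.13 and 3.13 (adjusted p from 0.00337 to 0.0431). Of the 76 detected genes that rose in intact mice, 78.9% had a fitted difference of the same sign in the Gata3flox-labelled mice, and of the 109 that fell, 70.6% did, against 55.9% of all detected genes. Of the undetected genes the shares were 48.4% of the 31 that rose and 69.8% of the 258 that fell, against 48.3% of all undetected genes. Detected genes were called in the same direction in both sets in 5 cases for higher and 9 for lower, and undetected genes in 1 case each.

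Other genes differed between the intact and the Gata3flox-labelled mice in their reporter effect. Tests of the difference between the 2 reporter effects called 176 genes (1.01%), 32 with a positive difference (0.183%) and 144 with a negative one (0.825%). Of the 176, 53 were detected in single ILCs and 123 were not. The genes given next were named for their calls in intact mice, a choice that favours such a difference. Ccl5 was at 69.8 to 332 CPM in fm_pos_Gata3flox and at 122 to 144 in fm_neg_Gata3flox, and its reporter effects differed by −10.09 ± 1.02 on the log2 scale (interaction adjusted p = 0.00361). Id3 was at 54.7 to 111 against 68.2 to 136 CPM there, and the effects differed by −4.09 ± 0.53 (0.00896). Tyrobp was at 125 to 260.2 against 263 to 454 CPM (−4.03 ± 0.77, 0.0427), and Pdgfb at 42.1 to 52.2 against 22.4 to 33 CPM (3.41 ± 0.63, 0.0399). Cd40lg fell in the Gata3flox-labelled mice (−4.04 ± 0.60, adjusted p = 0.0283), the opposite of its rise in intact mice, and the effects differed by 7.41 ± 0.94 (0.00856). The intact and the Gata3flox-labelled libraries also differed in the number of genes with a count and in their fibroblast sums, and the part of either was not tested.

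**Figure D4:**
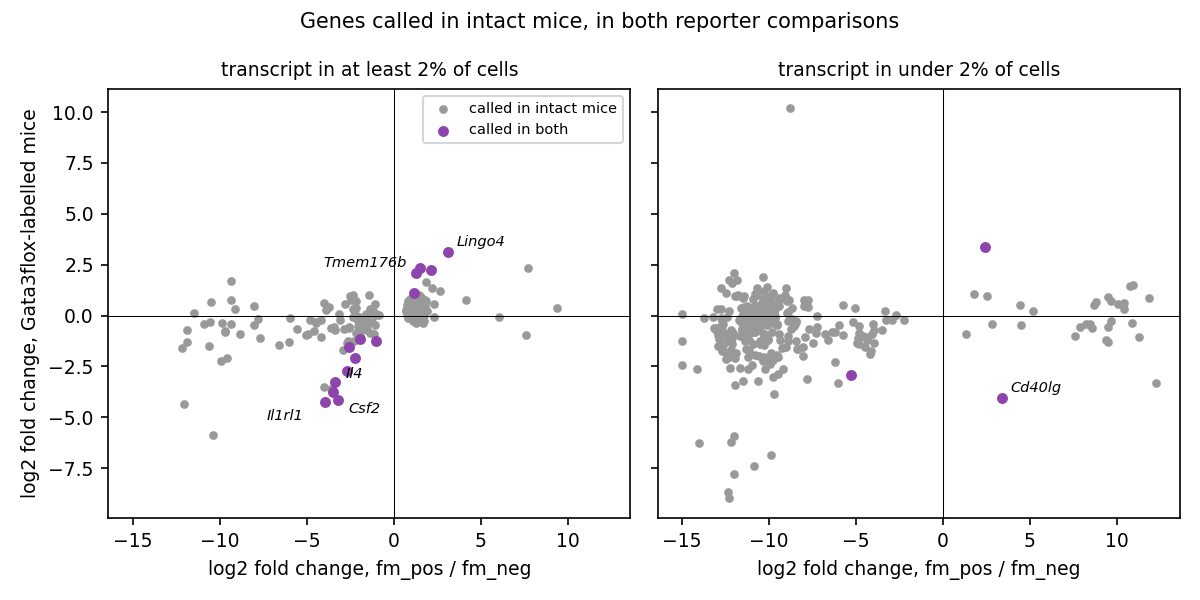
Log2 fold changes of the genes called in intact mice (x axis) against the same fold change in Gata3flox-labelled mice (y axis), with genes detected in at least 2% of single ILCs on the left and the other listed genes on the right, and genes called in both in purple. Fitted values beyond about 8 in either direction are mostly genes with few or no counts in a group, and depend on the prior count of the fit. On the left 5 higher and 9 lower genes were called in the same direction in both, and on the right 1 each, with Cd40lg opposite.

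The calls moved with the libraries and terms in the fit. Of the 478 calls 199 held when each of the 4 libraries was left out in turn, 19 higher and 180 lower, and of the 19 higher ones 9 were detected in single ILCs. Fitted on the 4 libraries alone, 29 genes passed, all lower, where 449 higher and 1230 lower genes had an unadjusted p under 0.05. The sequencing lane in the file names was the same for fm_pos_1, fm_pos_2 and fm_neg_1 and another for fm_neg_2, and with lane as a term 250 genes passed, 40 higher and 210 lower. Of the 70 called genes chosen by the naming rule, 5 passed on the 4 libraries alone and 45 with lane as a term. The 5 were Id3, Ifitm3, Igf1, Thbs1 and Apoe. Il4, Csf2, Il1rl1, Cd200r1, Ccr6, Tmem176b, Ncr1 and Pdgfb were among those that did not pass on the 4 libraries alone. With the fibroblast list sum as a covariate 0 genes passed with edgeR (506 higher and 523 lower at an unadjusted p under 0.05). That sum separates fm_neg from the other libraries, so the reporter and the sum cannot be told apart in the intact mice.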

How the data were processed

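Bulk RNA-seq of polyadenylated RNA was deposited as raw read counts per gene, not normalised, and the deposited single-cell values were raw counts per gene and cell. Per the submitters' processing notes the authors used HISAT2 2.1.0, featureCounts from Subread and mm10; strand setting and library kit are not given in the sources used here. Counts of 54446 genes were joined by gene ID, and symbols came from the reference table. All 10 fate-map libraries entered 1 model in edgeR 4.0.16 (R 4.3.3) with filterByExpr, TMM scaling and a prior count of 0.125, and fm_pos against fm_neg, the same contrast in Gata3flox-labelled mice and their difference were tested by quasi-likelihood with Benjamini-Hochberg adjustment over 17456 genes. The SE is the log2 fold change divided by the square root of F. CPM of single genes are TMM-scaled, and summed CPM of lists are not. On counts simulated from these libraries (16397 genes), 50 of 100 genes changed by 2 on the log2 scale and 70 of 100 changed by 4 were recovered, and 2 unchanged genes were called. At these depths, 3 counts over both fm_pos or both fm_neg libraries set the floor for genes with no count.

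Alternatives were DESeq2 1.42.0, RLE size factors, no filter, the 4 libraries alone, lane or the fibroblast list sum as a covariate, detected genes alone, a replicate block, each library left out, and detection in 1% or 5% of cells. Counting in the skin library alone was added after the data were seen. Cells with under 200 genes were left out, doublets were not called, and scripts used Python 3.11.15.

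Named genes were Gata3, Ptprc, Thy1, Il7r, Krt14, Krt5, Dcn and Col1a1, up to 4 called genes per direction of each lymphocyte or signal list by p (the 2 with the smallest p where none was called), 2 called genes of each list of other skin cells, and, at a mean CPM of at least 10, the 8 highest and 8 lowest detected and 4 highest and 4 lowest undetected called genes. That last part left out unnamed gene models, sex-linked genes and segments of antigen receptors. Other genes in the text were chosen after their values were seen. The members, lists and rule were chosen with earlier results of these data known. A gene of these lists is not reported here. Promoters came from RefSeq tables for GRCm38.p6, and exons from GENCODE vM21.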

Additional observations from a re-analysis of the deposited data

Results flagged for a closer look

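For 31 named genes the reporter effect of intact mice differed from that of Gata3flox-labelled mice by the interaction test (edgeR, adjusted p under 0.05 over 17456 genes), out of 176 such genes (1.01%). Of the named genes 70 were chosen for their call in intact mice, 1 of the 2 effects compared. That choice favours a difference in them, so the 31 cannot be set against the 1.01%. Values are the log2 fold change of fm_pos over fm_neg in intact mice minus that in Gata3flox-labelled mice. Among lymphocyte and signalling genes it was −10.09 for Ccl5, −9.13 for Ncr1, −4.09 for Id3, −4.03 for Tyrobp, 2.25 for Fasl, 7.41 for Cd40lg, 8.61 for Ccl3 and 3.41 for Pdgfb. Among immediate early, interferon and cell cycle genes it was −2.26 for Ier3, −3.36 for Egr1, −4.90 for Ifitm3, −2.53 for Irf1, −10.13 for Nusap1 and −10.93 for Ccnb1. Among growth and Wnt signals it was −10.37 for Pdgfa, −12.79 for Igf1 and −12.41 for Wnt10a.

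Among genes of keratinocytes, fibroblasts, vessels and macrophages the difference was −4.90 for Krt14, −3.94 for Krt15, −11.75 for Fgfr2, −9.46 for Dsg1a, −3.96 for Dcn, −5.39 for Thbs1, −14.03 for Cldn5, −12.07 for Eng, −4.01 for Apoe and −11.52 for Ccdc80. Of the remaining genes it was −10.58 for Entpd1, −7.49 for Pard3b, 8.17 for Zfp182 and 4.97 for Rab11fip4. Ccl3, Ncr1, Nusap1, Ccnb1, Pdgfa, Igf1, Wnt10a, Fgfr2, Dsg1a, Cldn5, Eng, Ccdc80, Entpd1, Pard3b and Zfp182 had 0 to 3 counts in 1 group of intact mice, so their fitted values depend on the prior count and are no bound. The fibroblast sums of the 2 fm_neg libraries of intact mice, 12358 and 9872 CPM, lay above all others, and their part in these differences was not tested.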

How the results depend on the processing

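The 478 calls (109 higher, 369 lower) became 2208 with DESeq2 (607 and 1601), 1324 with no filter on low counts (336 and 988), 29 on the 4 libraries alone (0 and 29), 250 with lane as a covariate (40 and 210), 0 with the fibroblast list as a covariate (0 and 0) and 191 among detected genes alone (54 and 137, of which 158 were called in the full fit). RLE size factors gave 456 (79 and 377), and ended the calls of Tmem176a, Ltb, Fasl, Trbc2 and Lat among the genes named. Leaving out 1 library gave 514 to 877 calls, 106 to 220 higher and 348 to 679 lower, with the highest total without fm_pos_2. The interaction calls, 176 in the full fit, were 1158 with DESeq2 and 231 to 504 without 1 library. With detection set at 1% of cells 20 undetected genes were higher, in place of 31, and at 5% 66 detected genes were lower, in place of 109; the skin library alone, chosen after the data were seen, gave 73 higher and 86 lower detected genes. Whether replicate numbers pair the samples could not be told. Deviations of same-numbered libraries correlated at −0.00443 in intact mice, where groups of 2 give 1 value only. In Gata3flox-labelled mice they correlated at 0.0975, 0.0169 and 0.0400. The fit with the replicate block called 126 genes (12 and 114) and 26 for the interaction. Of the 70 called genes chosen by the naming rule 26 kept the call with the block, Il4 and Cd200r1 among them. Csf2, Il1rl1, Arg1, Ccr6, Tmem176a, Tmem176b, Jaml and Adgrg5 lost it. With the fibroblast list as a covariate the fitted log2 difference changed sign for Gata3 (2.75), Ptprc (−0.25), Col1a1 (6.81), Il1rl1 (0.51), Tmem176b (−0.10), Lat (−0.061), Il1r2 (3.07), Ccl3 (−0.28), Cd9 (0.94), Zfp36 (0.28), Nr4a2 (0.028) and Dab2 (2.43); the list separates fm_neg from the other libraries, so these values have wide errors (0.51 ± 1.86 for Il1rl1) and the 2 cannot be told apart. The cause of the other shifts was not tested.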

Other observations

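Genes chosen after their values were seen add to the picture of the 4 libraries. Metabolic and stress genes were among the calls: Odc1, the first enzyme of polyamine synthesis, was at 1455 and 2493 CPM in fm_pos and at 816 and 865 in fm_neg (log2 fold change 1.23 ± 0.24, edgeR adjusted p = 0.0285). Without fm_neg_1 (adjusted p = 0.0848) or fm_neg_2 (0.0667) Odc1 no longer passed. The metallothionein gene Mt1 was at 26.3 and 31.5 against 729 and 641 CPM (−4.56 ± 0.54, adjusted p = 0.0031). The co-chaperone gene Bag3 was at 18.9 and 13.5 against 133 and 155 CPM, and Fosl1, an AP-1 subunit, at 24.8 and 35.8 against 448 and 189 CPM. On the 4 libraries alone Mt1 passed (edgeR adjusted p = 0.0183), while Bag3 (0.0809) and Fosl1 (0.167) did not. With the replicate block Fosl1 lost the call (0.0634). The part of fibroblast and keratinocyte transcripts in the Mt1, Bag3 and Fosl1 values was not tested. Hspa1a, a heat shock gene, was at 332 and 244 against 379 and 201 CPM and did not pass. Lsp1, an actin-binding protein gene of leukocytes, was at 1079 and 1090.0 against 589 and 532 CPM and rose by 0.95 ± 0.17 (adjusted p = 0.021), but did not pass without fm_neg_2 (0.0732).

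Plek, a gene of platelets and leukocytes, had no count in fm_pos, was at 17.7 and 17.9 CPM in fm_neg, and was at 18.5 to 33 CPM in fm_pos_Gata3flox. Gpnmb, a gene of macrophages and melanocytes, was at 0.0649 and 0.0753 against 93.6 and 93.4 CPM, and was found in at most 0.532% of single ILCs. Plscr1, Otulinl and Rnf128 were lower in both reporter comparisons. In intact mice Otulinl lost the call without fm_pos_1 (0.115), fm_neg_1 (0.0975) or fm_neg_2 (0.0578) and Rnf128 without fm_pos_1 (0.0743) or fm_neg_1 (0.0574). Plscr1 was at 87.4 and 98.5 against 318 and 395 CPM (−1.94 ± 0.17, adjusted p = 0.00106) in intact mice and at 146 to 157 against 315 to 349.8 CPM in Gata3flox-labelled mice. The T cell receptor variable segment Trbv19 was at 40.3 CPM in fm_pos_1 and 6.4 in fm_pos_2 with no count in fm_neg, and Cd8a was at 36.1 CPM in fm_pos_1, 0.045 in fm_neg_1 and 0 in the other 2 libraries. Cd4 had no count in any of the 4 libraries.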
